A study of Mus musculus with 157 samples.

Results

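The glutathione transferases and the defence genes controlled by NRF2 were examined across the livers of 157 male mice. The set was given as a fixed list of 34 genes by Ensembl identifier, and 33 of them were among the 23176 genes of the values table; Gsta1 (ENSMUSG00000074183_at) was absent and was not analysed here. The 33 genes comprise 15 glutathione transferases and 18 other genes: 5 that supply glutathione, 4 of the thioredoxin system, 4 detoxification enzymes, 3 of the pentose phosphate pathway, and the regulator Nfe2l2 with its inhibitor Keap1.

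The mice belonged to the pre-Collaborative Cross, partly inbred strains descended from the 8 founders WSB/Ei, PWK/Ph, CAST/Ei, NZO/H1LtJ, NOD/LtJ, C57BL/6J, A/J and 129S1/SvImJ, and each strain gave 1 mouse and 1 Affymetrix array. All were fed chow and were killed when 12 to 15 weeks old, following a 3-week programme with alcohol exposure and exercise; which mouse received what is not given in the labels. Kill dates formed 10 cohorts of 20, 21, 11, 5, 6, 10, 37, 22, 12 and 13 mice (cohorts 1 to 10). The other groupings used were 8 hybridization batches of 11 to 24 arrays, run on 4 hybridization days, the early (1 to 6) and late (7 to 10) cohorts, and blocks of 1000 strain numbers. Because a strain was sampled once, strain, environment and array error cannot be told apart in any difference between mice.

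Glutathione transferases join glutathione to reactive compounds and are abundant in hepatocytes. The alpha, mu, pi and theta classes are cytosolic enzymes encoded by gene clusters, the kappa class is mitochondrial, and the microsomal enzyme Mgst1 sits in membranes. NRF2, the product of Nfe2l2, is a transcription factor that KEAP1 marks for degradation until electrophiles or oxidants modify KEAP1; it then activates genes through antioxidant response elements in their regulatory DNA. Its well known targets include Nqo1, Gclc, Gclm, Txnrd1, Srxn1, several transferases and the pentose phosphate enzymes that make NADPH.

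The deposited value is a score that orders the 157 mice for 1 gene. It is the standard normal quantile of the mouse's rank, so every gene runs from about -2.49 to about 2.49 with a median near 0. The scores hold no expression level, fold change or spread, and levels of different genes cannot be compared. Differences are given in these scores, whose SD over all mice is close to 1. In whole liver, fewer cells of a type and less RNA per cell cannot be told apart. The array of cohort 2 mouse 2 and that of cohort 9 mouse 9 had wider scores over all genes than the rest (SD 1.40 and 1.57), and the counts of pairs and of members differing between batches are also given without them; the counts for kill cohort, trend, cohort 7 against cohort 1 and strain-number block, all 0, were also 0 without them. Liver cell markers were not examined, since only the 34 listed identifiers were paired with symbols.

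Upstream sequence was available for 29 of the 34 listed genes in RefSeq's promoter table (GRCm38.p6; 39 starts), with none there for Gsta4, Gstt2, Hmox1, Gclc and Gsr. The 8 shown belong to all 7 genes with 7 or more partners in the co-variation that follows (Gsta3 12, Gstm4 10, Tkt 9, Pgd 8, and Gstm2, Mgst1 and Ugdh 7 each), and to Gstm6, which with Gstm2 formed the pair of largest correlation. Each run gives the 250 bases before the start farthest upstream, 5′ to 3′ on the gene's strand. Capitals mark the core of the antioxidant response element, TGACNNNGC, on the printed strand or, as its reverse complement, on the other strand.
Gsta3, chr1:21240335-21240584 (plus strand): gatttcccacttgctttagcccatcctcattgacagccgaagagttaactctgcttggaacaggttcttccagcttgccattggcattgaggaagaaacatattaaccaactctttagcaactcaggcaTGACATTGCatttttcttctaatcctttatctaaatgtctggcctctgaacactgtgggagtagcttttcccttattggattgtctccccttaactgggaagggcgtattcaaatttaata
Gstm4, chr3:108044860-108045109 (minus strand): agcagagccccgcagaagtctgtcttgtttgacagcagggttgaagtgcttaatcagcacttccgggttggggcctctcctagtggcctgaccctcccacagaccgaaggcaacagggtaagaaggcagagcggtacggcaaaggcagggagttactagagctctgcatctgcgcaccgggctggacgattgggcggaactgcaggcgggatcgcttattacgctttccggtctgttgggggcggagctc
Tkt, chr14:30548881-30549130 (plus strand): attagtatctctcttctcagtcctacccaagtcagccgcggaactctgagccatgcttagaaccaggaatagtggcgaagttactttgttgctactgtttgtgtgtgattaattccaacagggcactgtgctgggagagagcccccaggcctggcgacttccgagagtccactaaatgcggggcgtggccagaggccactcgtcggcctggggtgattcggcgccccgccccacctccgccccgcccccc
Pgd, chr4:149166706-149166955 (minus strand): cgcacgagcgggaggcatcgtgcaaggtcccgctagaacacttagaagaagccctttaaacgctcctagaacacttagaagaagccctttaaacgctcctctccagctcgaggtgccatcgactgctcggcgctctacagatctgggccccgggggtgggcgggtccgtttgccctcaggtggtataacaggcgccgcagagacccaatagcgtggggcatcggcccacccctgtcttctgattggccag
Gstm2, chr3:107986421-107986670 (minus strand): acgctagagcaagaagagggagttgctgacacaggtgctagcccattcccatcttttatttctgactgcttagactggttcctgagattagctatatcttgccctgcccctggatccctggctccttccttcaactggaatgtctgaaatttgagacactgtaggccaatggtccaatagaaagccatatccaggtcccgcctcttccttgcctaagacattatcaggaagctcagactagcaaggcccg
Mgst1, chr6:138140277-138140526 (plus strand): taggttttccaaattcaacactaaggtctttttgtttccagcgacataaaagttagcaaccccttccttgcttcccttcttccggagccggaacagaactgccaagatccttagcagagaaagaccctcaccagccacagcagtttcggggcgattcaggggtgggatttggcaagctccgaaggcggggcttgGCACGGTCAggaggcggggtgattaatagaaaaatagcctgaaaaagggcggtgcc
Ugdh, chr5:65435843-65436092 (minus strand): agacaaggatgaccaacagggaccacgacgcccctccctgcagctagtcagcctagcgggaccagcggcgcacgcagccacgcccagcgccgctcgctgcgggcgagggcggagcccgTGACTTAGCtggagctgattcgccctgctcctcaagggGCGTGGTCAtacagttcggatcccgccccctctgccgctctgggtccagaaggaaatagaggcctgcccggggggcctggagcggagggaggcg
Gstm6, chr3:107953467-107953716 (minus strand): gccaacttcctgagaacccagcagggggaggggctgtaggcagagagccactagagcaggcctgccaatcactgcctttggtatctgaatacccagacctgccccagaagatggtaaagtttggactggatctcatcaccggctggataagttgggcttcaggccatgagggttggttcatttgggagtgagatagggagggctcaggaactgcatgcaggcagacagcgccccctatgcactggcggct

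In these windows TGACNNNGC occurred on either strand in 8 of the 39 starts, belonging to 8 genes (Gsta3, Ugdh, Mgst1, Gclm, G6pdx, Prdx1, Txnrd1 and Nfe2l2), against 10.2% of all 32851 promoters of the same length. Ugdh held 2 matches, 1 on each strand, and no start of a mu transferase held any. The match is a description of letters and says nothing about binding. Only this spelling was searched, so near forms, such as TGAGTCAGC in the windows of Gstp1 and Srxn1, were not counted. Among the genes with a match, Gsta3 had 12 partners, Ugdh and Mgst1 7 each, G6pdx 3 and Prdx1 2. Gclm, Txnrd1 and Nfe2l2, also with a match, had 0. Among those without a match, Gstm4, Tkt, Pgd and Gstm2 had 7 to 10 partners, and Gss and Slc7a11 had 0. Whether a match goes with the number of partners was not tested. Elements farther upstream lie outside these windows and were not searched.

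The main pattern was that these genes varied between livers in linked groups. With each member in turn as a covariate for all other genes, and with batch and kill cohort removed, 59 of the 528 member pairs passed (11.2%; limma, larger of the 2 adjusted p under 0.05). Over all genes, 1.11% of the 764775 tests of a member against another gene passed, 0.716% with a positive and 0.39% with a negative slope. These tests were counted in 1 direction each, whereas a pair had to pass in both, so the pair rule is the stricter. All but 1 of the 59 pairs were positive, and 390 of the 528 residual correlations were above 0, with a median of 0.09. Without the 2 arrays of widest scores 57 pairs passed, 56 of them among the 59. The pairs share members and are not independent of each other. With the first 5 principal components over all genes as further covariates, 26 pairs passed, 23 of them among the 59.

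**Figure D1:**
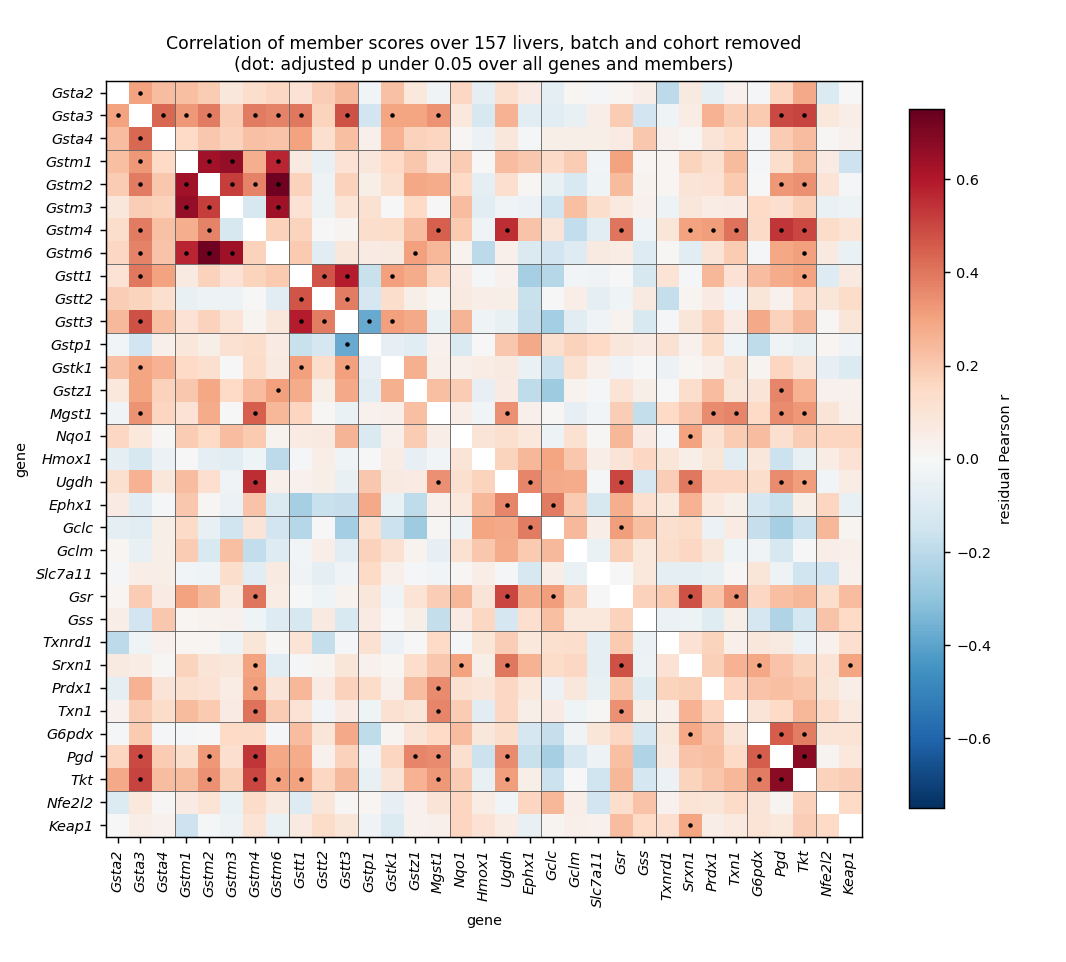
Residual Pearson r between the scores of each pair of the 33 genes over 157 livers after removal of batch and cohort means, with genes ordered by class and a dot on each of the 59 pairs that passed. The mu block (up to 0.73) and the theta block (up to 0.59) are red, and the rows of Gsta3, Gstm4, Tkt and Pgd hold the most dots. The rows of Nfe2l2 and Keap1 are pale, as are those of Slc7a11, Hmox1, Gss and Txnrd1.

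The mu transferases held the largest correlations within a class, with a median residual r of 0.55 over their 10 pairs, beside 0.47 over the 3 theta pairs. Gstm6, Gstm3, Gstm2, Gstm1 and Gstm4 lie in that order on chromosome 3 with 0 other protein-coding genes between neighbours in the RefSeq annotation of GRCm38.p6. Of their 10 pairs 7 passed, among them all pairs of Gstm1, Gstm2, Gstm3 and Gstm6. Gstm2 (ENSMUSG00000040562_at) and Gstm6 (ENSMUSG00000068762_at) had the largest residual correlation in the set, r = 0.73 (limma adjusted p = 4.78e-13). Among all other genes of the table, each was the closest to the other. In the scores as deposited r was 0.74 and rho 0.76 (permutation p = 1e-05 for both, the smallest the permutations can give, n = 157). Without the 2 mice farthest from the median Gstm2 score r was 0.73, and within the 8 batches it ran from 0.55 to 0.79. Of the 39 mice highest for Gstm2, 26 were among the 39 highest for Gstm6 and 0 among the 39 lowest. Most livers high for 1 of the genes were thus high for the other.

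Gstm1 (ENSMUSG00000058135_at) and Gstm3 (ENSMUSG00000004038_at) were likewise each other's closest gene in the table, with a residual r of 0.66 (limma adjusted p = 9.49e-09). Their deposited scores gave r = 0.60 and rho = 0.58 (permutation p = 1e-05 each, n = 157). Leaving out the 2 farthest mice gave 0.58, and the batches taken singly gave 0.25 to 0.82. Of the 39 mice highest for Gstm1, 23 were among the 39 highest for Gstm3 and 1 among the 39 lowest. The residual r was 0.64 for Gstm3 with Gstm6, 0.63 for Gstm1 with Gstm2, 0.57 for Gstm1 with Gstm6 and 0.52 for Gstm2 with Gstm3. Within batches every one of these 4 pairs was positive in 8 of 8.

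Gstm4 (ENSMUSG00000027890_at), at the end of the cluster, gave other values. Its residual r was 0.37 with Gstm2 (limma adjusted p = 0.00385), 0.27 with Gstm1 (adjusted p = 0.111), 0.17 with Gstm6 (adjusted p = 0.355) and -0.12 with Gstm3 (adjusted p = 0.590). The pair with Gstm2 did not pass with 5 components removed (r = 0.31, adjusted p = 0.0865). Paralogues of 1 class can share probe sequence; the probes were not used here, so co-variation and cross-hybridization within a class cannot be told apart. The 250-base windows of the mu genes were 56.4 to 61.2% identical in global alignment, and those of the unrelated genes Pgd and Tkt were 58.4% identical.

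The theta transferases, which act on small halogenated compounds, also moved together. Gstt1, Gstt2 and Gstt3 lie within 1 cluster on chromosome 10, and all 3 of their pairs passed. Gstt1 (ENSMUSG00000001663_at) and Gstt3 (ENSMUSG00000001665_at) had a residual r of 0.59 (limma adjusted p = 2.47e-08). Their deposited scores gave r = 0.57 and rho = 0.55 (permutation p = 1e-05 each, n = 157). Leaving out the 2 farthest mice gave 0.55, and the batches taken singly gave 0.08 to 0.81. Among all genes Gstt1 ranked 2 by closeness to Gstt3, and Gstt3 ranked 4 by closeness to Gstt1, whose largest absolute r was 0.80. Gstt1 with Gstt2 gave 0.47 and Gstt2 with Gstt3 gave 0.38. Of the 15 mu-theta pairs 0 passed, with residual r from -0.08 to 0.20, beside 9.18% of the 512 pairs across families. Of single tests of a member against any other gene, 1.11% passed. With 15 pairs, a count of 0 does not set the 2 classes apart.

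The alpha class was linked more loosely. Gsta3 (ENSMUSG00000025934_at) is on chromosome 1, apart from Gsta2 and Gsta4 on chromosome 9. It had a residual r of 0.43 with Gsta4, whose enzyme clears the lipid peroxidation product 4-hydroxynonenal (limma adjusted p = 0.000694), and of 0.30 with Gsta2 (adjusted p = 0.0390). The pair with Gsta2 did not pass in 5 alternatives, among them without batch and cohort terms (adjusted p = 0.0716) and on ranks (adjusted p = 0.0624). Gsta2 with Gsta4 gave 0.23 (adjusted p = 0.179).

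Gsta3 had the most partners of any member, 12 of 32, and was called with 2.34% of all genes. They were Gsta2, Gsta4, Gstm1, Gstm2, Gstm4, Gstm6, Gstt1, Gstt3, Gstk1, Mgst1, Pgd and Tkt, so its partners were 10 transferases and 2 pentose phosphate enzymes. Its residual r was 0.51 with Tkt (limma adjusted p = 1.60e-05), 0.50 with Pgd and 0.48 with Gstt3. Tkt was the member most like it and ranked 11 among all genes; the largest r of Gsta3 with any gene was 0.63, and that gene was not paired with a symbol here. Without the 2 farthest mice the deposited r of Gsta3 and Tkt was 0.49 against 0.51, and within batches it ran from 0.25 to 0.67.

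Across gene families, 47 of 512 pairs passed (9.18%). All 47 joined genes on different chromosomes, as did 482 of the 512 pairs tested. Pgd (ENSMUSG00000028961_at) and Tkt (ENSMUSG00000021957_at), which act in the oxidative and non-oxidative arms of the pentose phosphate pathway, had the largest value, a residual r of 0.67 (limma adjusted p = 1.79e-10). Their deposited scores gave r = 0.69 and rho = 0.64 (permutation p = 1e-05 each, n = 157). Leaving out the 2 farthest mice gave 0.67, and the batches taken singly gave 0.27 to 0.90. Among all genes Pgd ranked 3 by closeness to Tkt, and Tkt ranked 18 by closeness to Pgd, whose largest absolute r was 0.82. Of the 39 mice highest for Pgd, 25 were among the 39 highest for Tkt and 3 among the 39 lowest. G6pdx, which commits glucose 6-phosphate to the pathway, joined both, with 0.46 for Pgd and 0.38 for Tkt. Pgd was called with 1376 genes of the table (5.94%), the most of any member, and Tkt with 729 (3.15%).

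Gstm4 had 10 partners, 1 of them a mu gene, and was called with 2.2% of all genes. The partners were Ugdh, Pgd, Tkt, Mgst1, Txn1, Gsr, Gsta3, Gstm2, Prdx1 and Srxn1. With Ugdh (ENSMUSG00000029201_at), which makes the UDP-glucuronic acid used for glucuronidation, the residual r was 0.55 (limma adjusted p = 1.72e-07). The deposited scores of this pair gave r = 0.56 and rho = 0.54 (permutation p = 1e-05 each, n = 157). Leaving out the 2 farthest mice gave 0.52, and the batches taken singly gave 0.44 to 0.69. Gstm4 ranked 2 among all genes by closeness to Ugdh, and Ugdh ranked 4 by closeness to Gstm4, whose largest absolute r with any gene was 0.71. With Pgd and Tkt its residual r was 0.54 and 0.50; neither passed with 5 components removed (0.29 and 0.32; limma adjusted p = 0.253 and 0.0879).

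Gsr, glutathione reductase, had a residual r of 0.50 with Ugdh (limma adjusted p = 6.61e-06) and of 0.48 with Srxn1 (adjusted p = 2.67e-05), the sulfiredoxin that repairs over-oxidised peroxiredoxins. Srxn1 with Ugdh gave 0.40. Gsr also passed with Gstm4, Txn1 and Gclc. None of the 6 pairs within the thioredoxin system (Txn1, Txnrd1, Prdx1 and Srxn1) passed (residual r 0.04 to 0.26). Over all genes 1.11% of single tests passed, so 0 of 6 pairs does not set this system apart. Ugdh, Mgst1 and Gstm2 had 7 partners each and were called with 0.807%, 1.1% and 0.375% of all genes. Those of Mgst1 included Txn1, thioredoxin (0.37), and Prdx1, a peroxiredoxin (0.35). Gclc, the catalytic subunit of glutamate-cysteine ligase, passed with Gsr (0.32) and with Ephx1, microsomal epoxide hydrolase (0.39). With Gclm, the modifier subunit of the same enzyme, its residual r was 0.24 (limma adjusted p = 0.159).

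The single negative pair was that of Gstp1, the pi class transferase, and Gstt3. Its residual r was -0.38 (limma adjusted p = 0.00365). The deposited scores gave r = -0.38 (permutation p = 2e-05) and rho = -0.39 (permutation p = 1e-05, n = 157). Leaving out the 2 farthest mice gave -0.38, and the sign was negative in 8 of 8 batches (-0.56 to -0.06). Of the 39 mice highest for Gstp1, 13 were among the 39 lowest for Gstt3 and 2 among the 39 highest.

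**Figure D2:**
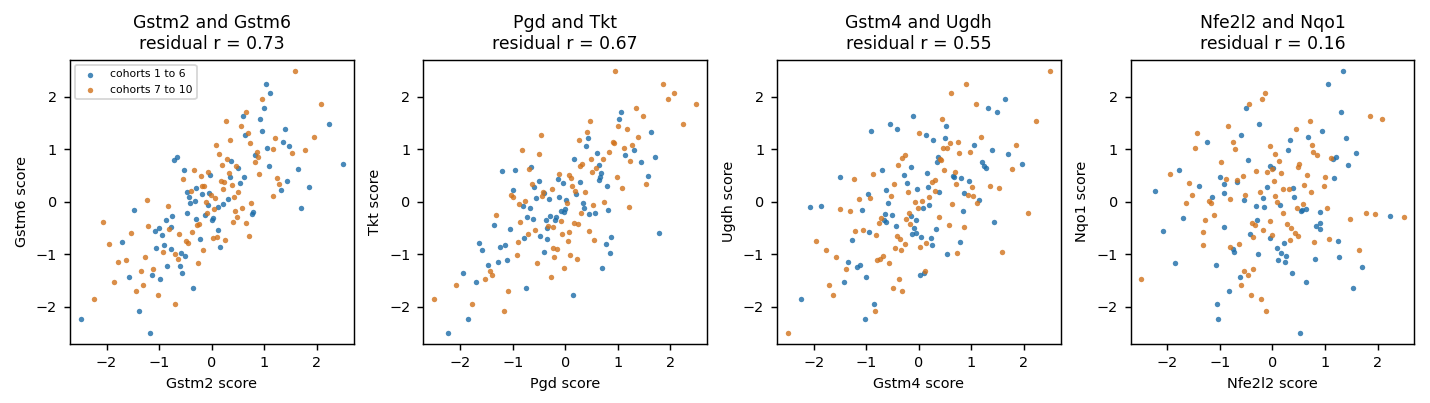
Deposited scores of the 157 mice for 4 pairs, 1 point per mouse, coloured by early (1 to 6) and late (7 to 10) cohorts, with both axes in score units. Gstm2 with Gstm6 and Pgd with Tkt lie along the diagonal, Gstm4 with Ugdh more loosely, and Nfe2l2 with Nqo1 (residual r 0.16) shows no such line.

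Nfe2l2 (ENSMUSG00000015839_at), the transcript of NRF2 itself, had 0 partners in the set in limma and in each of the alternatives run. Its residual correlations with the other 32 members ran from -0.14 to 0.25. The highest were Gclc at 0.25 (limma adjusted p = 0.145), Gss, glutathione synthetase, at 0.22 (adjusted p = 0.224) and Tkt at 0.17 (adjusted p = 0.385). Nqo1, the quinone reductase often used as a readout of NRF2, stood at 0.16 (adjusted p = 0.411). Before removal of batch and cohort the pair of Nfe2l2 and Gclc gave r = 0.20 and rho = 0.23 (permutation p = 0.013 and 0.00419, n = 157). Nfe2l2 was called with 437 other genes of the table (1.89%), and the member closest to it, Gclc, ranked 1239 among all genes.

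Keap1 (ENSMUSG00000003308_at) had 1 partner, Srxn1, at a residual r of 0.30 (limma adjusted p = 0.0453). That call was lost without batch and cohort terms, with 1 or 5 components removed, under quantile normalization, in either set of cohorts, without the 2 arrays of widest scores, and without cohort 4 mouse 2 or mouse 5. The other 31 values of Keap1 ran from -0.16 to 0.23, including 0.15 with Nfe2l2. Keap1 was called with 544 genes (2.35%), beside 542 for Gsta3. Another 5 members had 0 partners. Hmox1, heme oxygenase, had its highest residual r with Gclc (0.29; limma adjusted p = 0.0652), and 1.07% of all genes were called with it. Gclm had its highest with Ugdh (0.28, adjusted p = 0.0758; 0.859% of all genes), and Gss with Gclc (0.22, adjusted p = 0.216; 0.639%). Txnrd1, thioredoxin reductase, had its highest with Gsr (0.20, adjusted p = 0.270; 0.591%). Slc7a11, the cystine importer, had its highest with Gstp1 (0.15, adjusted p = 0.451; 0.082%). In all, 6 members had no called partner and 27 had at least 1.

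**Figure D3:**
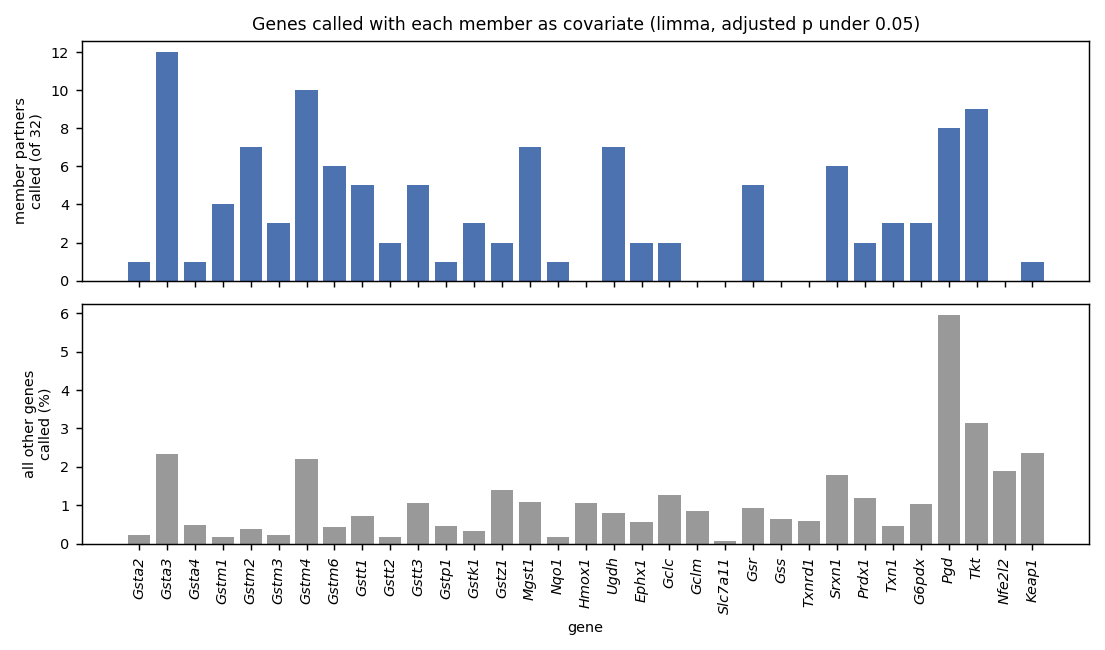
Upper bars give the number of the other 32 members that formed a called pair with each gene, passing in both directions. Lower bars give the percent of all 23175 other genes called with it as covariate, in 1 direction. Gsta3 (12), Gstm4 (10) and Tkt (9) have the most member partners, Pgd is called with the largest share of all genes (5.94%), and Nfe2l2 and Keap1 combine 0 and 1 member partners with 1.89 and 2.35% of all genes.

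Analysed separately, the 73 mice of cohorts 1 to 6 gave 7 called pairs and the 84 mice of cohorts 7 to 10 gave 28, all of them among the 59. Fewer mice enter each set. Tested directly, 0 of the 528 pairs had a slope that differed between the early and late cohorts (limma interaction term, adjusted p under 0.05). By the larger unadjusted p of each pair, 14 pairs (2.65%) were under 0.05. Of all tests, counted separately for each direction, 5.24% had an unadjusted p under 0.05. These shares were counted by unlike rules and cannot be compared.

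Kill cohort was the next comparison. Between the 10 cohorts 0 of 33 members passed (limma F test with batch as covariate), where 2.45% of all genes did. At an unadjusted p under 0.05 there were 7 members (21.2%) and 16.8% of all genes, and the F test without moderation also called 0. Cohort held 2.04 to 14.8% of a member's variance after batch, with a median of 6.81% beside 6.55% for all genes. The smallest adjusted p belonged to Gclc (0.0914), Tkt (0.121) and Pgd (0.166).

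Gclc (ENSMUSG00000032350_at), rate-limiting for glutathione synthesis, ran from -1.77 through a median of 0.59 to 2.24 in cohort 2, and from -2.24 through -0.80 to 1.78 in cohort 8. In cohort 7 it ran from -2.49 through -0.36 to 1.08. Of the 21 mice of cohort 2, 17 were above 0, and of the 22 mice of cohort 8, 5 were, although the 2 ranges overlapped almost fully. The means were 0.602 ± 1.04 (SD, n = 21) and -0.608 ± 1.03 (SD, n = 22). Gclc passed between cohorts when the batch term was dropped (limma adjusted p = 0.0470).

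Pgd ran from -1.70 through a median of -0.39 to 1.31 in cohort 1, and from -2.49 through 0.94 to 2.49 in cohort 8. Of these mice 5 of 20 were above 0 in cohort 1 and 17 of 22 in cohort 8. Tkt ran from -1.53 through -0.31 to 1.06 in cohort 1 and from -1.86 through 0.75 to 2.49 in cohort 8. Both genes thus stood high in many, not all, livers of cohort 8.

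Among the 45 pairs of cohorts, looked at after these values were seen, members passed in 2. Cohort 8 exceeded cohort 1 by 1.07 ± 0.298 for Pgd and by 1.03 ± 0.298 for Tkt (SE; limma adjusted p = 0.0206 and 0.0283; 2.83% of all genes passed there). Gclc was lower in cohort 8 than in cohort 2, by -1.12 ± 0.297 (adjusted p = 0.0203; 1.5% of all genes passed). With adjustment over all 45 pairs none of the 3 passed (limma adjusted p = 0.157, 0.192 and 0.119; 0.0317% of all such tests passed).

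Cohort 7 against cohort 1, the largest late cohort and the first, gave 0 of 33 members (3.49% of all genes; limma contrast), with 2 members at an unadjusted p under 0.05 (6.06%) and 20.2% of all genes. The smallest adjusted p was that of Srxn1, with a difference of -0.69 ± 0.271 (SE; adjusted p = 0.125). It ran from -1.96 through 0.44 to 2.49 in cohort 1 and from -2.49 through -0.31 to 1.48 in cohort 7. Gss stood at -0.57 ± 0.271 (adjusted p = 0.206) and Gclc at -0.51 ± 0.271 (adjusted p = 0.273).

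**Figure D4:**
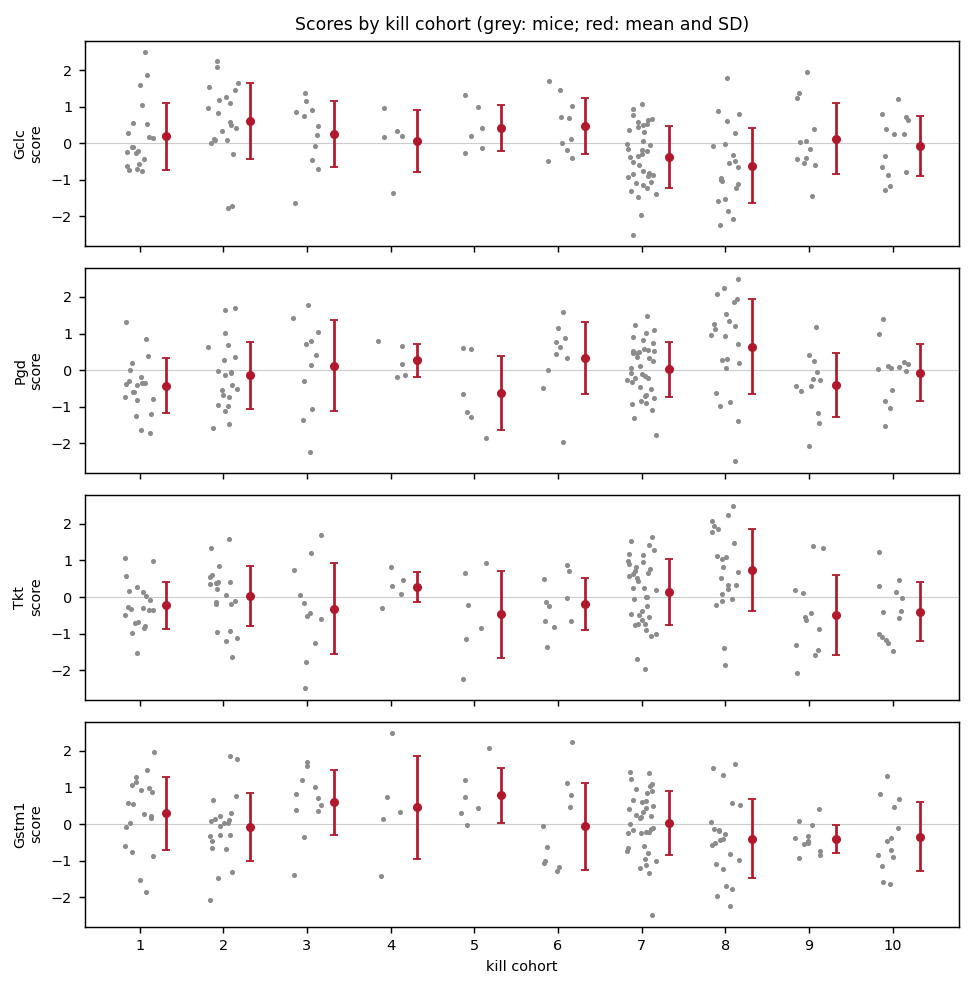
Scores of Gclc, Pgd, Tkt and Gstm1 by kill cohort, with grey points for mice and red points with bars for the mean and SD. The ranges overlap in all cohorts; Pgd and Tkt have their highest cohort mean (0.64 and 0.75) and Gclc its lowest (-0.61) in cohort 8.

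For a trend over kill day 0 of 33 members passed (beside 3.49% of all genes; limma), and 4 members (12.1%) and 15.6% of all genes had an unadjusted p under 0.05. Gstm1 came closest, with a slope of -0.26 ± 0.0898 per 100 days (SE; adjusted p = 0.0709). It passed without cohort 7 (-0.31 per 100 days, limma adjusted p = 0.0462), with hybridization day in place of batch (adjusted p = 0.0332) and with the first component as a covariate (adjusted p = 0.0417), and it turned to 0.06 in cohorts 1 to 6 alone. Gstm1 was above 0 in 14 of 20 mice of cohort 1, 6 of 22 of cohort 8, 2 of 12 of cohort 9 and 4 of 13 of cohort 10. Gclc had a slope of -0.24 ± 0.0898 (adjusted p = 0.107), which passed without the batch term (-0.28, limma adjusted p = 0.0460). It turned to 0.02 with strain-number block as a covariate. The early cohorts alone gave 0.08 and the late cohorts 0.39, and none of these slopes passed. Gstt2 had a slope of 0.22 ± 0.0898 (adjusted p = 0.171). Because kill day is shared within a cohort, these errors treat them as more independent than they are.

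Strain-number blocks of 1000, which are largely aligned with the cohorts, gave 0 of 33 members (0.652% of all genes; limma F test after batch) and 4 members (12.1%) at an unadjusted p under 0.05 against 13.6% of all genes. The smallest adjusted p were those of Gclc (0.191), Gsta2 (0.275) and Gstk1, the mitochondrial kappa transferase (0.305). After kill cohort the block again gave 0 members, with 1 member (3.03%) and 7.19% of all genes at an unadjusted p under 0.05. The smallest adjusted p there were those of Gstk1 (0.635), Gsta2 (0.704) and Gss (0.770).

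Between hybridization batches, a technical label, 3 members differed (9.09%), beside 12.2% of all genes (limma F test with cohort as covariate). They were Gstm1 (adjusted p = 0.0158), Gsta4 (adjusted p = 0.0252) and Gclm (adjusted p = 0.0452). Without the 2 arrays of widest scores Gstm6 passed as well, which made 4 (limma adjusted p = 0.0489 for Gstm6). Gstm1 ran from -0.13 through 1.24 to 1.96 in batch 8, where 10 of 11 arrays were above 0, and from -2.49 through -0.41 to 1.70 in batch 1, where 7 of 22 were. Batch 8 against the mean of the others gave 1.06 ± 0.304 (SE; limma adjusted p = 0.164; 0.0216% of all genes passed there). Gsta4 ran from -0.61 through 0.59 to 2.49 in batch 3, and it exceeded the mean of the other batches there by 0.90 ± 0.224 (SE; limma adjusted p = 0.00964; 6.3% of all genes passed there). Gclm was low in batch 7, with 3 of 14 arrays above 0 and a median of -0.89, against 8 of 11 and 0.40 in batch 8. Batch 7 against the mean of the others gave -0.92 ± 0.273 (SE; limma adjusted p = 0.0852; 0.319% of all genes passed there). Its call was lost without cohort 4 mouse 1 or mouse 4, with the first component removed and with hybridization day in place of batch. After cohort, batch held 15.5% of the variance of Gstm1, 14.1% of that of Gsta4 and 12.3% of that of Gclm. Batch was removed before the residual correlations, and without batch and cohort terms 75 pairs passed, 53 of them among the 59.

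**Figure D5:**
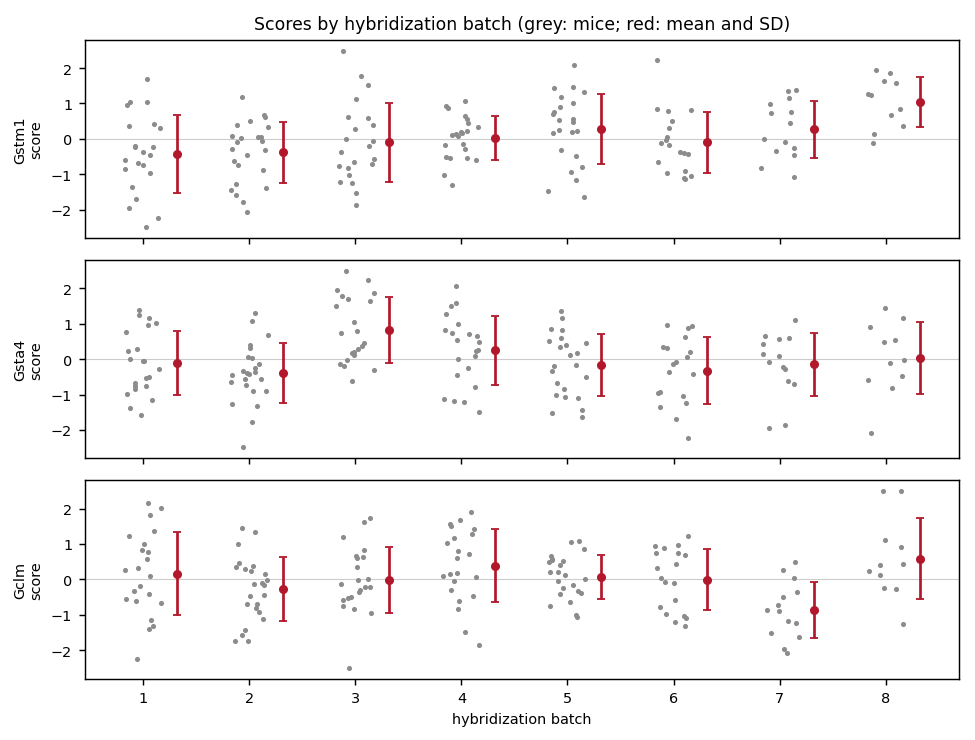
Scores of Gstm1, Gsta4 and Gclm by hybridization batch, with grey points for arrays and red points with bars for the mean and SD. Gstm1 is highest in batch 8 (mean 1.04), Gsta4 in batch 3 (0.82), and Gclm lowest in batch 7 (-0.87).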

How the data were processed

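Liver RNA of 157 male mice was measured on 1 Affymetrix array each. Per the labels, a custom array definition grouped the probes by Ensembl gene (NCBI 37, Ensembl 49). The submitters' processing notes name RMA and affy; no version is given. What the authors deposited is a rank-based score: all 23176 genes equal the normal quantile of the rank over arrays within 6e-05, a step no label records. The number of arrays limits the precision.

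Kill dates at most 3 days apart formed a cohort. The design text speaks of 6 batches; the 8 of the labels were used. Models were fitted to all genes with limma 3.58.1 in R 4.3.3 (lmFit, eBayes with trend), with Benjamini-Hochberg adjustment over all genes, and for pairs over all genes and the 33 members as covariates. Moderation replaced each gene's own spread by a shared value, which was recorded for the cohort fit and not for the pair fits. Only the kill cohort test was also run without moderation. A pair was called when the larger of its 2 adjusted p was under 0.05. Correlations over mice were computed for 528 pairs with 100000 two-sided permutations (numpy 2.4.6, scipy 1.17.1); their p-values are unadjusted. Principal components came from all genes. Motif matches used RefSeq promoters of GRCm38.p6. The fits were tested on simulated data: of 100 genes each, 45 at a simulated r of 0.3 and 100 at 0.5 were recovered with a member as covariate (23175 genes), 56 shifted by 1 SD in cohort 7 and 99 shifted by 1.5 SD for the cohort test, 33 and 76 of the same for cohort 7 against cohort 1, 85 and 99 shifted by 1 and 1.5 SD in batch 3 for the batch test, and 17 and 92 with slopes of 0.25 and 0.5 for the trend (23176 genes). The covariate simulation used 1 covariate and 1 direction, so it does not give the recovery of the stricter pair call over 33 members. Every simulated gene also carried random batch effects, so the 85 and 99 of the batch test are not recovery of the batch 3 shift alone.

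The members and lists were chosen with earlier results of these data known. Members were named by the symbols of the given list; named were, per test, those past the threshold or else the 3 with the smallest p, and for pairs the 12 with the largest residual r, pairs within the alpha, mu and theta classes, and those of Nfe2l2 and Keap1. Other pairs, and the pairs of cohorts, were named after their values were seen. No other identifier could be named, so the lists of other pathway genes and of cell type markers were not used here.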

Additional observations from a re-analysis of the deposited data

Results flagged for a closer look

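In cohorts of 5 to 10 mice, 4 of 99 gene and cohort groups held a mouse set apart from the rest by Dixon's gap ratio at the 95% level, and chance flags about 1 in 20 groups. Gstm2 stood at 2.49 in cohort 6 mouse 7, where the next highest mouse stood at 0.59. Gstt3 stood at -2.49 in cohort 6 mouse 10, where the next lowest stood at -0.82. Cohort 5 mouse 3 was set apart for a pair of genes, with Gstm4 at -2.24 (next lowest -0.11) and Txnrd1 at -1.53 (next lowest 0.52).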

How the results depend on the processing

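The 59 called pairs became 26 with 5 components removed, 7 in cohorts 1 to 6 and 28 in cohorts 7 to 10, where fewer mice enter; in the other alternatives they stayed within 1.5 times, at 48 on ranks to 75 without batch and cohort terms, and at 54 to 58 without each mouse of cohort 4 in turn. None of the 59 changed sign in any setting run. The 0 members called between cohorts became 1 (Gclc) without the batch term. The 0 with a trend became 1 without the batch term, with hybridization day in place of batch, with the first component as covariate and without cohort 7. The 3 differing between batches became 5 under quantile normalization, and were 2 to 3 without each mouse of cohort 4; the other member counts were 0 there. The cause was not tested. Signs turned for the slopes of Gstm1 (0.0585 in cohorts 1 to 6) and Gclc (0.0207 with strain-number block, 0.0830 in cohorts 1 to 6 and 0.386 in cohorts 7 to 10), and for Gss between cohorts 7 and 1 (0.0456 with strain-number block); none of these passed. Leaving out the 2 wide arrays, the first component for batch and for cohort 7 against 1, and the interaction test were chosen after seeing the data. The scores hold no signal over background, so its limits could not be given. No paired analysis was possible because each strain gave 1 mouse and 1 array.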

Other observations

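Pairs within the alpha, mu and theta families aside, 0 of 30 pairs on the same chromosome were called in limma (adjusted p under 0.05). Their residual r ran from -0.18 to 0.25. On different chromosomes 47 of 482 such pairs were called (9.75%). The share over all genes was 1.11% of tests of a member against another gene, counted in 1 direction. The 30 pairs are few and share members, and a difference by chromosome was not tested. Gclc lies 4 protein-coding genes from Gsta4 and 10 from Gsta2 on chromosome 9.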
